A study of Arabidopsis thaliana with 14 samples.

Results

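The comparison described here set early senescent (ES) leaves of the *hda9* mutant against ES leaves of wild type (WT) *Arabidopsis*, on the FPKM values of 2 libraries per genotype. These 4 libraries were taken by their labels, out of 14 samples in all and 9 RNA-seq libraries, and the test was limited to genes whose FPKM averaged 1 or more over them, 18029 of 33278. FPKM is a fragment count scaled to transcript length and to the mapped fragments of the library. WT was Columbia-0, and *hda9* is a T-DNA insertion line in that background, so every *hda9* value comes from 1 line and 1 allele. All plants grew on soil under continuous light, without a further treatment, and leaves were sampled at the stage labelled early senescence, and how that stage was scored is not given in the sources used here. ES leaves of *pwr*, also a T-DNA line, were in the same table (2 libraries), and young leaves (YL, 2 weeks) of WT (2 libraries) and *hda9* (1 library) were in a table of their own. Nothing in the labels ties the libraries of a genotype to separate plants or harvests, although the study describes them as biological replicates.

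Leaf senescence is the last phase of a leaf's life, in which chloroplasts are dismantled, chlorophyll is broken down, and nitrogen, sugars and minerals are exported to growing organs. NAC and WRKY transcription factors switch on senescence-associated genes, autophagy and vacuolar proteases degrade proteins and organelles, and abscisic acid (ABA), ethylene, jasmonate and salicylic acid act on the timing. HDA9 is a class I histone deacetylase of the RPD3 type, an enzyme that removes acetyl groups from histone tails, and POWERDRESS (PWR) is a SANT domain protein that works with it. The comparison asked which transcripts differ when the deacetylase is lost in leaves that have begun to senesce.

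The 2 libraries of a genotype differed from each other about as much as the genotypes did. Across the tested genes, log2(FPKM + 1) correlated at r = 0.896 between WT ES 1 and WT ES 2 and at 0.886 between *hda9* ES 1 and *hda9* ES 2, and at 0.930 between WT ES 1 and *hda9* ES 1 and 0.921 between WT ES 2 and *hda9* ES 2. Between differently numbered libraries of the genotypes it was 0.911 (WT ES 2 and *hda9* ES 1) and 0.822 (WT ES 1 and *hda9* ES 2). These are descriptions over genes, which are not independent. Low FPKM values in WT ES 2 and *hda9* ES 2 fell on steps of whole reads and those in WT ES 1 and *hda9* ES 1 did not. The libraries were split into 2 sets on this, which no label names, and those without steps were grouped only by lacking them. Number and set coincided in these genotypes. Each difference is therefore given pooled and also within each pair, *hda9* ES 1 minus WT ES 1 and *hda9* ES 2 minus WT ES 2, in that order. All differences are on the log2(FPKM + 1) scale, which understates changes of low genes, and gene counts or depths were not part of the table. Whether a lower value reflects fewer cells of a type or less RNA per cell cannot be told apart in whole leaves.

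At an unadjusted p under 0.05 (limma, the threshold of the study), 403 genes were called higher in *hda9* (2.24% of those tested) and 487 lower (2.7%), together 4.94%. A threshold of 0.05 passes 5% of genes when none differs. The number of calls in this fit, which has no block, therefore does not by itself set the genotypes apart. After Benjamini-Hochberg adjustment limma kept 1 gene higher and 4 lower. All 890 called genes had the same sign in both pairs, which the call nearly requires. Opposite signs widen the spread within the groups, so this is no separate evidence of agreement between pairs. At least a 2-fold difference in both pairs was seen for 248 genes higher (1.38%) and 256 lower (1.42%), and 115 genes passed 2-fold in opposite directions. The within-pair differences correlated at r = 0.341 (Spearman's rho 0.5001) across genes. Values of the groups did not overlap for 2698 genes higher (15.0%) and 2871 lower (15.9%), 36.3% of genes were higher in both pairs and 32.9% lower in both. Fitted with the library set as a block, limma called 1739 genes higher (9.65%) and 1345 lower (7.46%). Each of these shares exceeds 5%, so the comparison with 5% depended on the block. The median difference over all tested genes was 0.01, and 0.04 and -0.00018 in the pairs. The functions below are described by their own counts and medians, to be read against these figures. For calls these are 2.24% higher and 2.7% lower, or 9.65% and 7.46% with the library set as a block. The gene lists were compiled with earlier results of these data known.

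**Figure D1:**
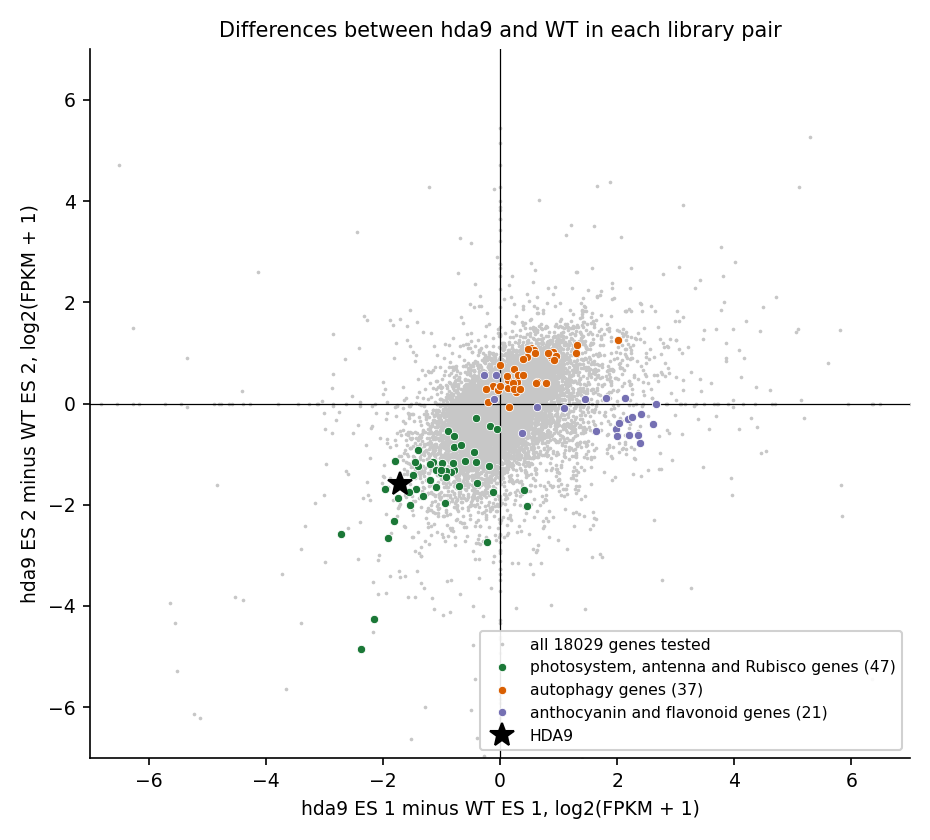
Difference between *hda9* and WT on log2(FPKM + 1) in the first library pair (horizontal axis) and the second (vertical axis), 1 point per gene, with 28 genes outside the limits of 7. The 47 photosystem, antenna and Rubisco genes sit almost wholly at the lower left, 30 of the 37 autophagy genes at the upper right, and the 21 anthocyanin and flavonoid genes are displaced along the first pair only.

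*HDA9* itself was low in both mutant libraries. Its FPKM was 5.94 and 11.7 in WT ES and 1.12 and 3.21 in *hda9* ES, with no overlap. The gene (AT3G44680, chromosome 3, 16226519 to 16230009, TAIR10.1) fell by 1.65 on the log2 scale (SE 0.458, limma unadjusted p = 0.0123, adjusted p = 0.903), by 1.71 and 1.59 in the pairs. The *hda9* YL library, at 0.918 against 3.34 and 4.73 in WT YL, was also lower. In *pwr* ES leaves *HDA9* was at 11.3 and 9.71, within the range of WT.

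*PWR* (AT3G52250), the gene of the partner protein, was higher where *HDA9* was disrupted. It was at 10.2 and 16.97 in WT and at 28.5 and 51.5 in *hda9*, and rose by 1.47 (SE 0.394, limma unadjusted p = 0.0105), with 1.401 and 1.55 in the pairs. In *pwr* itself the gene was at 7.01 and 6.02. *PWR* overlaps a neighbour on the opposite strand in the annotation and the library kit does not keep strand, so reads of the overlap cannot be assigned. Among the 16 tested genes of histone deacetylases and their partners these were the only calls. All 10 tested histone acetyltransferase genes had a higher mean in *hda9*, with a median of 0.20, and 2 were called, but none without *hda9* ES 2. *HAC1*, a CBP-type acetyltransferase, was at 9.33 and 9.64 in WT and 17.3 and 22.8 in *hda9*, and its homologue *HAC5* at 4.42 and 4.21 against 6.41 and 8.05. Their limma p-values were 0.0104 and 0.0495 before adjustment.

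Of the function lists, the one with the most calls held nuclear genes for light harvesting and photosynthesis, which were lower in *hda9*. None of the 47 photosystem, antenna, Rubisco small subunit and Rubisco activase genes had a higher mean in *hda9*. Of these 13 fell (limma, unadjusted p under 0.05), against 2.7% of all genes, and none rose. In both pairs 45 were lower, against 32.9% of all genes, and 22 were at least 2-fold lower in both, against 1.42%. The median difference was -1.17 (-0.99 and -1.35 in the pairs) against 0.01 for all genes. With the library set as a block 38 of the 47 were called lower, against 7.46% of all genes. After rescaling the libraries by median ratios or to equal 75th percentiles 7 were called lower, with medians of -1.21 and -1.22.

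The median was lowest for the *LHCB* genes, which encode the chlorophyll a/b-binding proteins of the photosystem II antenna. All 14 were lower in both pairs, 13 of them at least 2-fold, 9 were called, and their median was -1.78 (-1.77 and -1.80). *LHCB1.2* (AT1G29910, chromosome 1, 10472280 to 10473502) was at 3506 and 1458 in WT and at 534 and 243 in *hda9*. Both mutant libraries lay below both WT libraries, and the gene fell by 2.65 (SE 0.621, limma unadjusted p = 0.00593), by 2.71 and 2.58 in the pairs. *LHCB1.4* (AT2G34430, chromosome 2, 14524607 to 14525918) was at 561 and 566 in WT against 107 and 18.5, a fall of 3.62 (SE 0.842, limma unadjusted p = 0.00569). The mutant libraries differed from each other by more for this gene, with 2.38 in the first pair and 4.86 in the second. *LHCB2.4* (AT3G27690, chromosome 3, 10255906 to 10257489) went from 249.99 and 123 to 55.4 and 5.48, a fall of 3.21 (SE 1.004). *LHCB1.3*, the most abundant of the family, was at 11778 and 6318 in WT and 3341 and 1269 in *hda9*. *LHCB3* was at 3652 and 1410 against 1090 and 388, and *LHCB4.2* at 2812 and 1034 against 717 and 319, and both fell. *LHCB4.3* was the member below 2-fold, at 65.2 and 11.9 in WT and 48.6 and 9.55 in *hda9*. *LHCB1.1*, *LHCB1.2* and *LHCB1.3* are near-identical neighbours, as are several *LHCB2* copies, so the split of reads among them is uncertain, and *LHCB1.3* and *LHCB2.4* each overlap a gene on the opposite strand.

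Genes of the photosystem I antenna and of both core complexes were lower to a smaller extent. The 6 *LHCA* genes had a median of -1.24 and 2 of them fell, *LHCA1* (2716 and 1369 in WT, 968 and 516 in *hda9*) and *LHCA3* (3687 and 2216 against 1390 and 941). All 12 tested photosystem I subunit genes were lower in both pairs, with a median of -1.16, and *PSAO* was the only call. All 10 photosystem II subunit genes were lower in both pairs as well, with a median of -1.01, and *PSBO1*, for a protein of the oxygen-evolving complex, fell. Under either rescaling neither *PSAO* nor *PSBO1* was called, and the *LHCB* and *LHCA* calls numbered 6 and 1. For the Rubisco small subunit genes the pairs differed. *RBCS1A* was at 8136 and 2395 in WT and at 7163 and 1023 in *hda9*, so the groups overlapped widely. The medians of the 4 *RBCS* genes were 0.14 in the first pair and -1.73 in the second, and none was called. *RCA*, Rubisco activase, had a difference of -0.28 with an SE of 0.597.

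**Figure D2:**
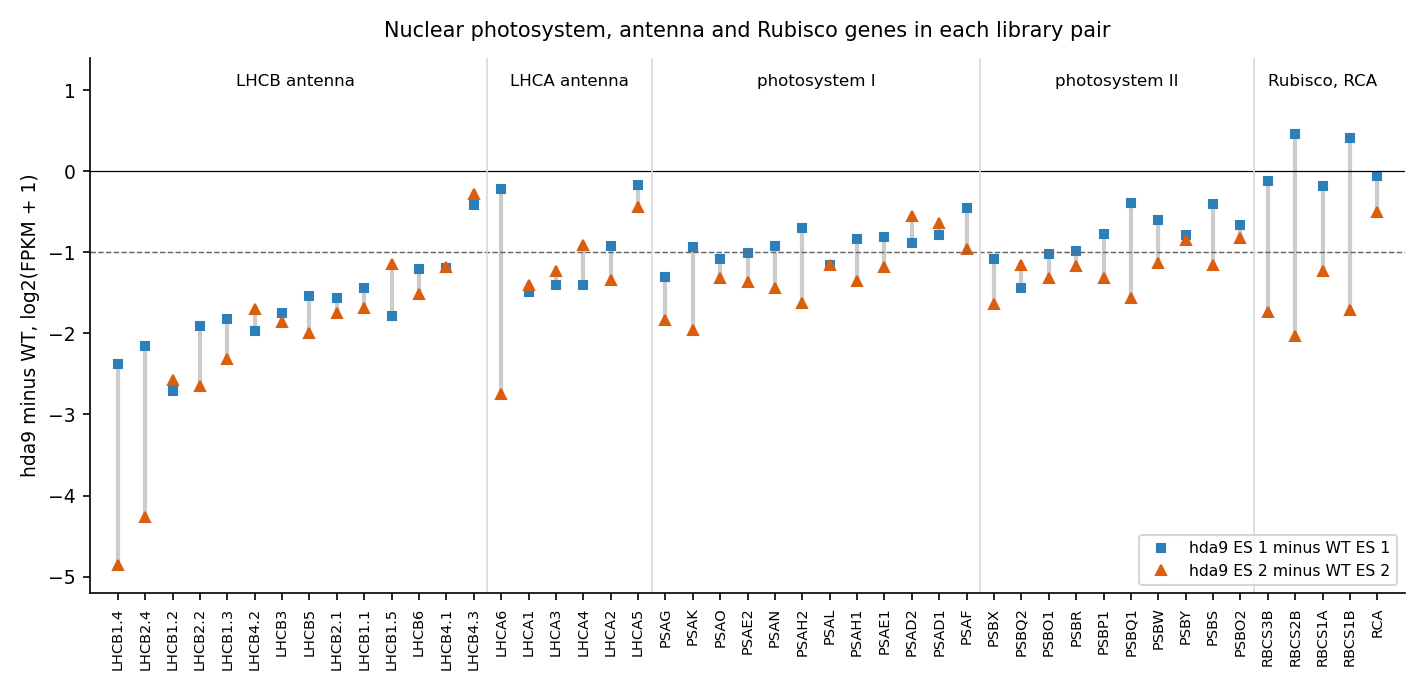
Difference between *hda9* and WT on log2(FPKM + 1) for the 47 genes of the photosynthesis list, ordered by complex, with a square for the first library pair and a triangle for the second and a dashed line at a 2-fold decrease. All *LHCB* genes except *LHCB4.3* lie below the dashed line in both pairs, and the Rubisco genes lie near 0 in the first pair.

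Libraries weighed on this result unequally. Leaving out WT ES 1 left 2 of the 47 genes called lower with a median of -0.70, and leaving out *hda9* ES 2 left 3 with a median of -0.47, whereas 28 were called without *hda9* ES 1 and 15 without WT ES 2. Of the 14 *LHCB* genes 2, 12, 11 and 3 were called lower without WT ES 1, WT ES 2, *hda9* ES 1 and *hda9* ES 2. Within WT the same genes had a median of -1.10 for WT ES 2 minus WT ES 1, beside -1.17 between the genotypes.

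Sequences just upstream of 3 of these genes are shown because these members of the list had the largest falls. Each window holds 200 bases that end at the annotated gene start in the RefSeq annotation of TAIR10.1 and is written 5′ to 3′ on the strand of the gene. It was searched on both strands for the G-box CACGTG, the I-box GATAAG, the CRT/DRE core CCGAC, the evening element AAAATATCT and the W-box core TTGAC, capitals mark a match on either strand, and matches of different motifs did not overlap in the windows shown. *LHCB1.2* spans chr1:10473503-10473702 on the minus strand, *LHCB1.4* chr2:14524407-14524606 and *LHCB2.4* chr3:10255706-10255905 on the plus strand.
LHCB1.2: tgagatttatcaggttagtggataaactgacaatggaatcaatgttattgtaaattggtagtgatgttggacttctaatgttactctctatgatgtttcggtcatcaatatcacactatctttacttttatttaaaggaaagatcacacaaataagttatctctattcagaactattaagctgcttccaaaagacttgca
LHCB1.4: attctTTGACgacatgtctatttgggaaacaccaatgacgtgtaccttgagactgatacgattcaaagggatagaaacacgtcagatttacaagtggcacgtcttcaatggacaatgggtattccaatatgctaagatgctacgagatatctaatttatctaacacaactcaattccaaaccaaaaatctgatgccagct
LHCB2.4: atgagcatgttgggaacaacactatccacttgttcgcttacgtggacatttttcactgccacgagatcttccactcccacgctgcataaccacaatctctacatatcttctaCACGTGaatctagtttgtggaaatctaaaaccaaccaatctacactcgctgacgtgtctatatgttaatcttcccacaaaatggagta

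A G-box was found in 9 of the 47 windows of the photosynthesis list (19.1%) and in 6.58% of the 17955 windows of tested genes on the nuclear chromosomes. The I-box, a motif of light-regulated promoters, was in 10 of 47 (21.3%) and in 1820 of the 17955 windows. The W-box core bound by WRKY factors was in 27.7% of the list and 38.6% of all. Among the 14 *LHCB* windows 3 held a G-box and 2 an I-box, and the window of *LHCB1.2*, a gene with one of the larger falls, held none of the motifs. A match describes letters in the window and was not tested as a site.

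Of the chlorophyll genes limma without a block called 1, in synthesis, and none in breakdown. Of 24 tested synthesis genes 2 had a higher mean in *hda9*, 17 were lower in both pairs and the median was -0.38 (-0.27 and -0.56). *CHLP*, the geranylgeranyl reductase that makes the phytyl tail, was the 1 call, at 478 and 466 in WT and 253 and 281 in *hda9* (fall of 0.82, SE 0.288, limma unadjusted p = 0.0309). The median was -0.12 without WT ES 1 and -0.04 without *hda9* ES 2, and limma called 0 synthesis genes without WT ES 1, WT ES 2 or *hda9* ES 2 and 4 without *hda9* ES 1, *CHLP* not among them. None of the 13 breakdown genes was called, and the median was 0.16, which became -0.20 without WT ES 1 and -0.06 without *hda9* ES 2 and was 1.08 with 5 called higher without WT ES 2. *NYC1*, chlorophyll b reductase, was at 115 and 340 in WT and 342 and 770 in *hda9*, higher by 1.57 and 1.18 in the pairs (limma unadjusted p = 0.0901). *PPH*, pheophytinase, was at 79.1 and 265 against 177 and 560. On the log2 scale the 2 libraries of WT lay further apart than the groups in both genes. With the library set as a block 5 of the 13 breakdown genes were called higher, against 9.65% of all genes. In the same fit 7 of the 24 synthesis genes were called lower, against 7.46%. The 14 tested photorespiration genes all had lower means with a median of -0.33, and none was called. The direction depended on single libraries, since the median was 0.25 with 13 of 14 higher without *hda9* ES 2, and 7 were higher and 7 lower without WT ES 1. *GOX1*, glycolate oxidase, was at 1827 and 936 against 1366 and 681.

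Senescence regulators and markers lay higher in *hda9*, but few passed the test, and the 2 WT libraries were far apart (a median of 1.76 for WT ES 2 minus WT ES 1 over the markers). Of 10 tested *SAG* and *SEN* marker genes 8 had a higher mean, with a median of 0.69 (0.79 and 0.63), and 1 was called. The median was 0.11 without WT ES 1 and without *hda9* ES 2, 1.88 without WT ES 2 and 1.51 without *hda9* ES 1, and without *hda9* ES 2 limma called 0 higher and 1 lower. The called gene, *SAG14* (AT5G20230), encodes a blue copper-binding protein. It was at 50.4 and 188 in WT and at 429 and 1227 in *hda9*, so the groups did not overlap, and it rose by 2.88 (SE 0.762, limma unadjusted p = 0.00995), by 3.07 and 2.70 in the pairs. *SAG13*, a short-chain dehydrogenase, was at 119 and 374 against 506 and 836 (limma unadjusted p = 0.0536). *SAG12*, the cysteine protease used as the classic late marker, was listed at 0 and 5.0 in WT and at 0.636 and 10.9 in *hda9*, with the second library higher in both genotypes. It was listed at 0 in all 3 YL libraries. *SWEET15* (*SAG29*) was at 25.6 and 348 in WT and at 256 and 538 in *hda9*, and *SAG21* at 53.3 and 580 against 85.2 and 354.

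All 14 NAC factors linked to senescence had a higher mean in *hda9*, 11 were higher in both pairs, and the median was 0.74 (0.81 and 0.52). None was called by limma without a block, and 8 were called higher with the library set as a block, against 9.65% of all genes. *NAP*, a NAC activator of chlorophyll loss and ABA synthesis, was at 20.7 and 62.3 in WT and 63.1 and 218 in *hda9*, higher by 1.57 and 1.79. *ORE1*, a positive regulator of age-dependent cell death, was at 9.88 and 74.4 against 43.5 and 128. *VNI2*, which extends leaf life, was at 198 and 151 against 340 and 254 and had the highest mean of the list (limma unadjusted p = 0.0528). WT ES 2 exceeded WT ES 1 by a median of 1.28 over these 14 genes, and *hda9* exceeded WT by 0.74. Without WT ES 1 limma called 0 NAC genes with a median of 0.18, without WT ES 2 limma called 6 NAC genes higher, without *hda9* ES 1 it called 3, and without *hda9* ES 2 it called 1. Among 13 tested WRKY factors 2 rose and none fell, with a median of 0.34. Without WT ES 1 limma called 0 higher and 1 lower (median -0.16), and without *hda9* ES 2 it called 0 (median -0.01). *WRKY57*, a repressor of jasmonate-induced senescence, was at 27.4 and 35.9 against 46.5 and 60.02 and rose by 0.73 (SE 0.280). *WRKY6* was at 8.72 and 23.8 against 34.3 and 36.0 and rose by 1.22 (SE 0.460). *WRKY53*, an early promoter of senescence, was at 4.68 and 13.2 against 7.16 and 5.29, with opposite signs in the pairs.

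Autophagy genes were higher in *hda9* with 1 exception, *ATG10*, though most did not pass the test. Of 37 tested genes 36 had a higher mean and 30 were higher in both pairs, against 36.3% of all genes. Of them 5 rose, against 2.24% of all genes, while none fell. The median was 0.48 (0.39 and 0.56), and groups did not overlap for 21 genes, all higher, against 15.0% of all genes. The genes that rose act in the start of autophagy and the growth of its membrane. *ATG11*, a scaffold of the ATG1 kinase complex, was at 6.95 and 10.9 in WT and 18.9 and 25.4 in *hda9* and rose by 1.24 (SE 0.326, limma unadjusted p = 0.00973). *ATG13A*, a regulatory subunit of that kinase, was at 31.6 and 31.1 against 47.5 and 65.8 and rose by 0.82. *APG9*, the membrane protein ATG9, was at 12.6 and 20.6 against 24.3 and 42.8, and *ATG2*, its partner in lipid supply, at 6.40 and 9.78 against 12.4 and 20.0. *ATG18A*, which binds phosphoinositides on the forming membrane, was at 42.2 and 40.7 against 64.1 and 82.6. Of the *ATG8* genes, whose product is conjugated to the membrane, *ATG8H* was at 17.63 and 52.0 against 74.7 and 126 (limma unadjusted p = 0.0511) and *ATG8E* at 75.5 and 85.3 against 109 and 183 (limma unadjusted p = 0.0529). With the library set as a block 19 genes were called higher, against 9.65% of all genes, and under either rescaling 10. Without WT ES 1 or without *hda9* ES 2 limma called 0 of the 37 in either direction, and without WT ES 2 and *hda9* ES 1 it called 9 and 12. The list median stayed above 0 in these fits, from 0.25 to 0.79.

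**Figure D3:**
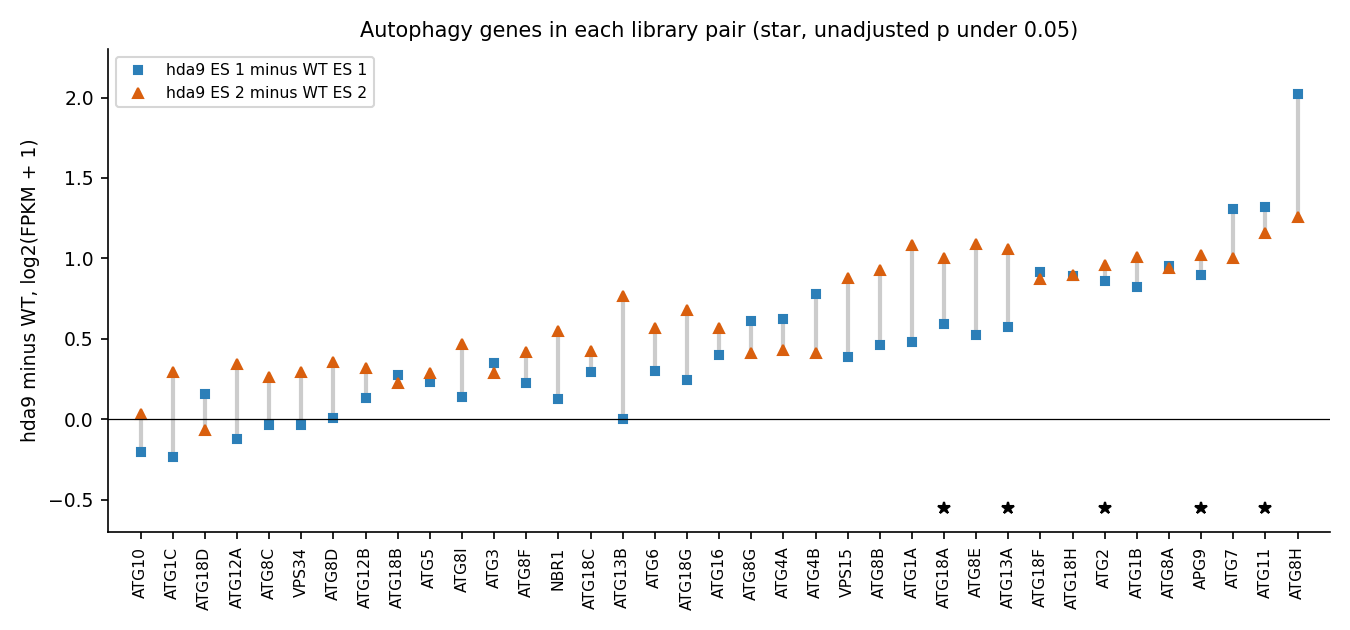
Difference between *hda9* and WT on log2(FPKM + 1) for the 37 tested autophagy genes, ordered by the pooled difference, with a square for the first library pair, a triangle for the second and a star under the 5 genes called higher by limma. Of the 37 genes 30 lie above 0 in both pairs.

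Genes for nitrogen and sugar export gave 4 calls, all higher, with list medians of 0.03 and 0.06. Of 16 tested nitrogen remobilization genes 9 had a higher mean and 2 rose. *GLN1;4*, a cytosolic glutamine synthetase, was at 8.32 and 5.94 in WT and 16.7 and 14.4 in *hda9*, rising by 1.04 (SE 0.270, limma unadjusted p = 0.00936). *NRT1.5*, a nitrate transporter of the xylem, was at 3.88 and 16.2 against 38.4 and 39.8 and rose by 2.13 (SE 0.832). *ASN1*, asparagine synthetase, was at 17.8 and 58.6 against 6.58 and 17.7 and was not called. Of 11 tested SWEET sugar transporters *SWEET10* (0.0849 and 0.159 against 4.996 and 1.67) and *SWEET2* (6.56 and 13.6 against 23.3 and 23.7) rose. *SWEET10* passed the filter only through its *hda9* values. None of 15 vacuolar cysteine proteases was called, and *RD19C*, the highest of them, was at 2169 and 2609 in WT and 1578 and 1865 in *hda9*.

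Among genes against reactive oxygen, *CSD1*, the cytosolic copper/zinc superoxide dismutase, was at 135 and 213 in WT and 462 and 553 in *hda9* and rose by 1.57 (SE 0.420, limma unadjusted p = 0.0104). *CAT1*, a catalase, was at 30.8 and 47.5 against 96.4 and 74.7 and rose by 1.13 (SE 0.345). The more abundant *CAT2* and *CAT3* were at 1492 and 975 against 1368 and 721, and at 2814 and 2742 against 2059 and 3813. *MT1C*, a metallothionein, was at 49.4 and 57.3 against 103 and 138 and rose by 1.15 (SE 0.278), and the 4 other tested metallothioneins were not called. *CSD1* overlaps a gene on the opposite strand.

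Hormone genes gave few calls in number, in short lists. Of 9 tested ABA synthesis and breakdown genes 2 rose, against 2.24% of all genes, and none fell. These were *CYP707A2* (3.53 and 2.79 against 5.46 and 9.69) and *CYP707A4* (5.87 and 5.73 against 13.7 and 11.8), both hydroxylases that inactivate ABA. *NCED3*, the main synthesis enzyme, was at 15.7 and 53.2 against 26.2 and 43.2. The list median of 0.20 was -0.25 without WT ES 1 and 0.10 without *hda9* ES 2. It was 0.71 without WT ES 2 and 0.55 without *hda9* ES 1. None of the 18 tested ABA receptor, phosphatase and kinase genes and none of the 9 ABA-responsive factors and AFP repressors was called. *AFP4* was at 1.204 and 16.5 in WT and 6.07 and 32.7 in *hda9*, and *NPX1* at 5.09 and 9.72 against 9.34 and 19.5 (limma unadjusted p = 0.115). None of 22 jasmonate genes or 12 JAZ repressors was called, and the jasmonate list had medians of 0.13 and -0.75 in the pairs. Of 15 tested salicylic acid and defense genes 1 rose and 1 fell, against 2.24% and 2.7% of all genes. *BIK1*, a receptor-associated kinase, was at 19.5 and 22.6 against 40.3 and 43.6 and rose by 0.96 (SE 0.269). *PAD4*, a lipase-like regulator of salicylic acid signalling, was at 40.8 and 27.03 against 13.9 and 14.6 and fell by 1.17 (SE 0.388).

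The 15 tested genes that the study names from its *hda9* leaves do not form 1 kind. They hold *HDA9* itself and the markers *SEN4*, *SAG12* and *HAI1* (*SAG113*), which the study reports as lower in *hda9* by RT-qPCR. The rest are genes it picked with these libraries in hand, so their direction here is no independent evidence. For *APG9* and *WRKY57* the study also reports higher values in *hda9* and *pwr* by RT-qPCR. Of the 15, 6 rose and 1, *HDA9*, fell, and none of the 3 markers reported as lower by RT-qPCR was called in either direction. Unlike in the RT-qPCR of these markers, *SEN4* and *SAG12* lay higher in *hda9* in both pairs, and *HAI1* had opposite signs in the pairs. Without WT ES 1 limma called 0 of the 15 higher, without *hda9* ES 2 it called 1, without WT ES 2 and *hda9* ES 1 it called 6 and 9. The list median of 0.82 was 0.54, 0.48, 1.07 and 1.13 in these fits. The 6 were *CAT1*, *BIK1*, *APG9*, *ATG2*, *ATG13A* and *WRKY57*. *SEN4*, a xyloglucan endotransglycosylase gene, was at 373 and 673 in WT and 724 and 748 in *hda9*, *HAI1* at 14.9 and 163 against 28.1 and 154, *PLL5* at 13.9 and 20.6 against 24.0 and 38.3 and *AFP2* at 1.82 and 3.06 against 2.31 and 6.38, and none of these was called.

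**Figure D4:**
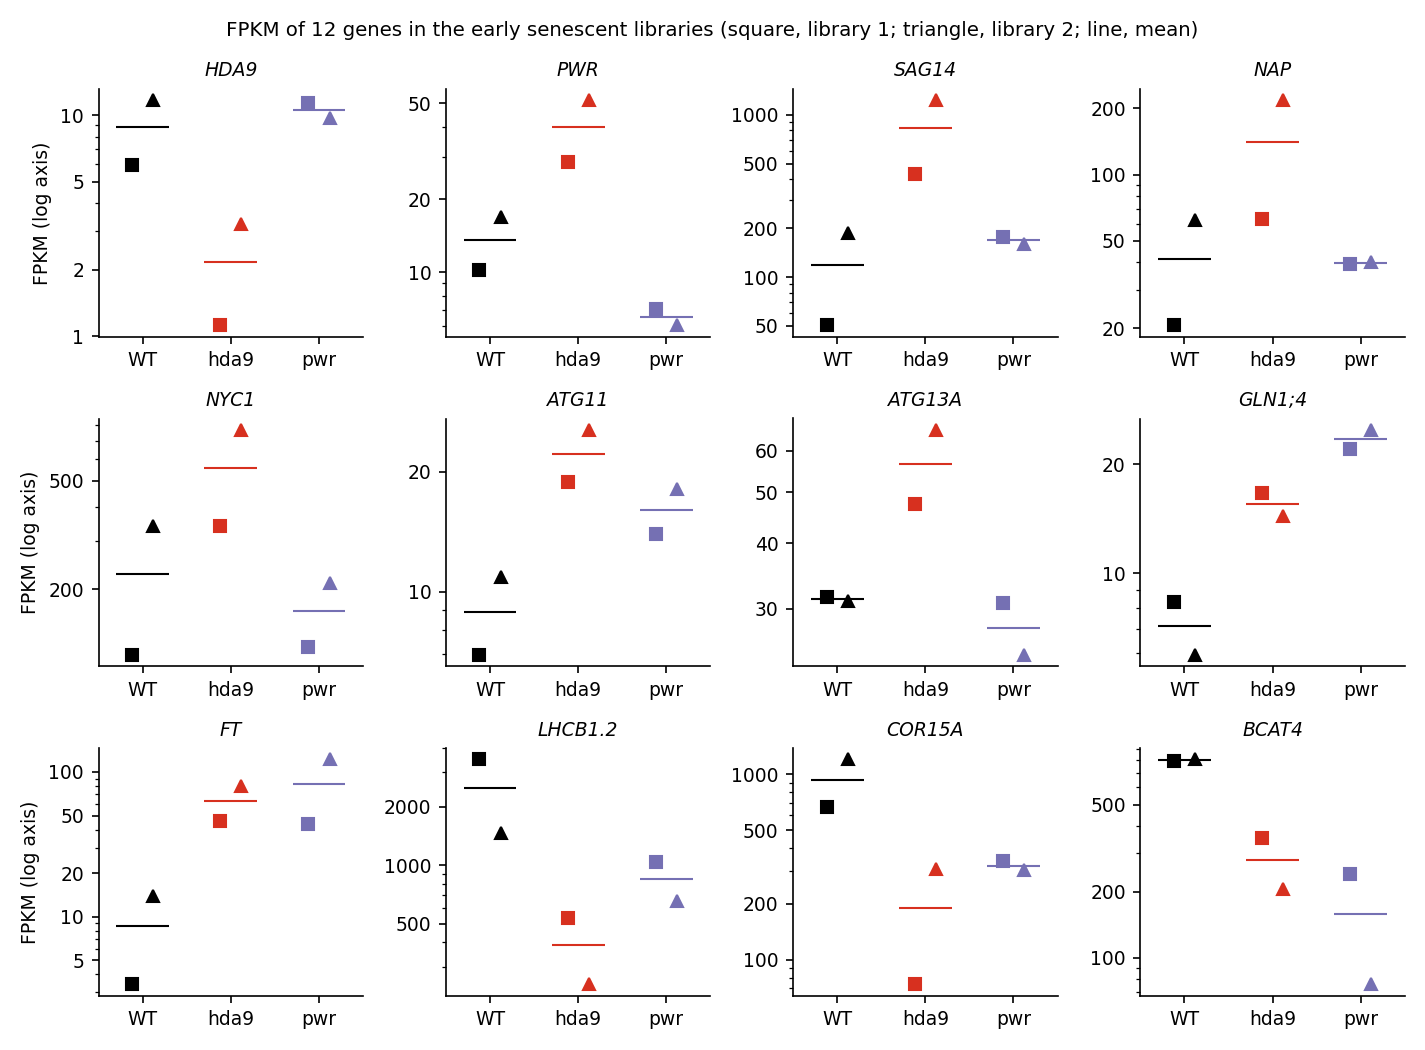
FPKM on log axes of 12 genes in the ES libraries of WT, *hda9* and *pwr*, with a square for library 1, a triangle for library 2 and a line at the mean. For *SAG14* the *hda9* libraries, at 429 and 1227, lie above all others, and for *LHCB1.2*, at 534 and 243, below all others.

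Cold- and drought-responsive protectants were lower in *hda9*, mainly in the second pair. Of 21 tested dehydrin, *COR* and *RD* genes 3 fell, against 2.7% of all genes, and none rose. The median was -0.71, although it was -0.08 in the first pair and -1.10 in the second. *COR15A* (AT2G42540, chromosome 2, 17710441 to 17712330), which protects chloroplast membranes in freezing, was at 668 and 1204 in WT and 73.4 and 307 in *hda9* and fell by 2.57 (SE 0.712, limma unadjusted p = 0.0123), by 3.17 and 1.97 in the pairs. Its tandem copy *COR15B* was at 325 and 203 against 53.0 and 76.5 and fell by 1.99 (SE 0.364, limma unadjusted p = 0.0018). *COR413-PM1*, a plasma membrane protein, was at 574 and 483 against 269 and 207 and fell by 1.15 (SE 0.313). *RAB18*, a dehydrin, showed how far the libraries differed, at 8.85 and 466 in WT and 3.53 and 27.03 in *hda9*, and was not called. *COR47* was at 208 and 1892 against 209.9 and 2462, differing by 0.02 and 0.38 in the pairs. The list median was 0.46 without WT ES 2 and -1.66 without WT ES 1, so its sign depended on the WT library used, and without *hda9* ES 1 it was -0.03.

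The upstream windows of *COR15A* and *COR413-PM1* are shown since both genes fell and both windows hold the CRT/DRE core, the element through which CBF factors act in the cold. The window of *COR15B* lies inside *COR15A* and is left out. Search and capitals are those used for the antenna genes. *COR15A* spans chr2:17712331-17712530 on the minus strand and *COR413-PM1* chr2:6949651-6949850 on the plus strand.
COR15A: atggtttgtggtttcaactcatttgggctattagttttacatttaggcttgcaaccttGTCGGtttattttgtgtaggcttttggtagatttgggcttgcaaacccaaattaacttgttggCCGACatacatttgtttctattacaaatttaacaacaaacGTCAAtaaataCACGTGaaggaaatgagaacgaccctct
COR413-PM1: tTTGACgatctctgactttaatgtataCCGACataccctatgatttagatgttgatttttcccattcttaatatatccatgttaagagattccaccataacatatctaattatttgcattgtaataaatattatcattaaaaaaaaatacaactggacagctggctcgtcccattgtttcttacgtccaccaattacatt

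The CRT/DRE core was in 6 of the 21 windows of this list (28.6%) and in 11.2% of all windows, and a G-box was in 4 (19%). None of the 5 tested CBF and ZAT factors was called. *ZAT10*, the highest of them, was at 57.4 and 150 in WT and 47.0 and 83.9 in *hda9*.

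Glucosinolate synthesis was lower, mostly in the second pair. Glucosinolates are the sulphur-containing defense compounds of the Brassicaceae. Of 30 tested genes 29 had a lower mean, 21 were lower in both pairs and 6 fell, against 32.9% and 2.7% of all genes for the last 2. The median was -0.96, with -0.21 in the first pair and -1.52 in the second. *BCAT4*, the aminotransferase that starts methionine chain elongation, was at 786 and 805 in WT and 350 and 207 in *hda9* and fell by 1.56 (SE 0.603, limma unadjusted p = 0.0432). *MYB76*, an activator of aliphatic glucosinolate genes, was at 6.25 and 4.199 against 2.14 and 0.686 and fell by 1.42 (SE 0.410). *CYP83A1* (426 and 578 against 308 and 187), *GSTU20* (297 and 454 against 217 and 112) and *FMOGS-OX3* (68.7 and 92.1 against 52.9 and 26.1) also fell. So did *AOP2* (38.7 and 64.6 against 22.8 and 15.1), which is annotated as a transcribed pseudogene in this accession. *CYP83B1*, of the indole branch, was at 297 and 246 against 295 and 198 and was not called. Leaving out *hda9* ES 2 left 0 genes called with a median of -0.40, 16 were called without *hda9* ES 1, 1 without WT ES 2 and 3 without WT ES 1.

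The anthocyanin and flavonoid genes gave opposite answers in the 2 pairs. The median of 21 tested genes was 1.99 in the first pair and -0.27 in the second, 18 were higher in the first and 6 in the second, and none was called. Without WT ES 2 limma called 13 higher, and without WT ES 1 the median was -0.22. *CHS*, chalcone synthase, was at 97.2 and 664 in WT and at 504 and 434 in *hda9*. *DFR*, dihydroflavonol reductase, was at 53.5 and 398 against 344 and 394. Of the 4 libraries WT ES 1 was the low one for both genes. Expansins, which loosen cell walls, differed the other way. All 8 were lower in the second pair, with a median of -1.49, against 0.06 in the first, and *EXPA11* (8.69 and 4.54 against 3.15 and 0.0853) was the 1 call, lost without either WT library, without *hda9* ES 2 and with a pseudocount of 0.1. *EXPA1* was at 80.7 and 91.6 in WT and 161 and 31.5 in *hda9*.

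**Figure D5:**
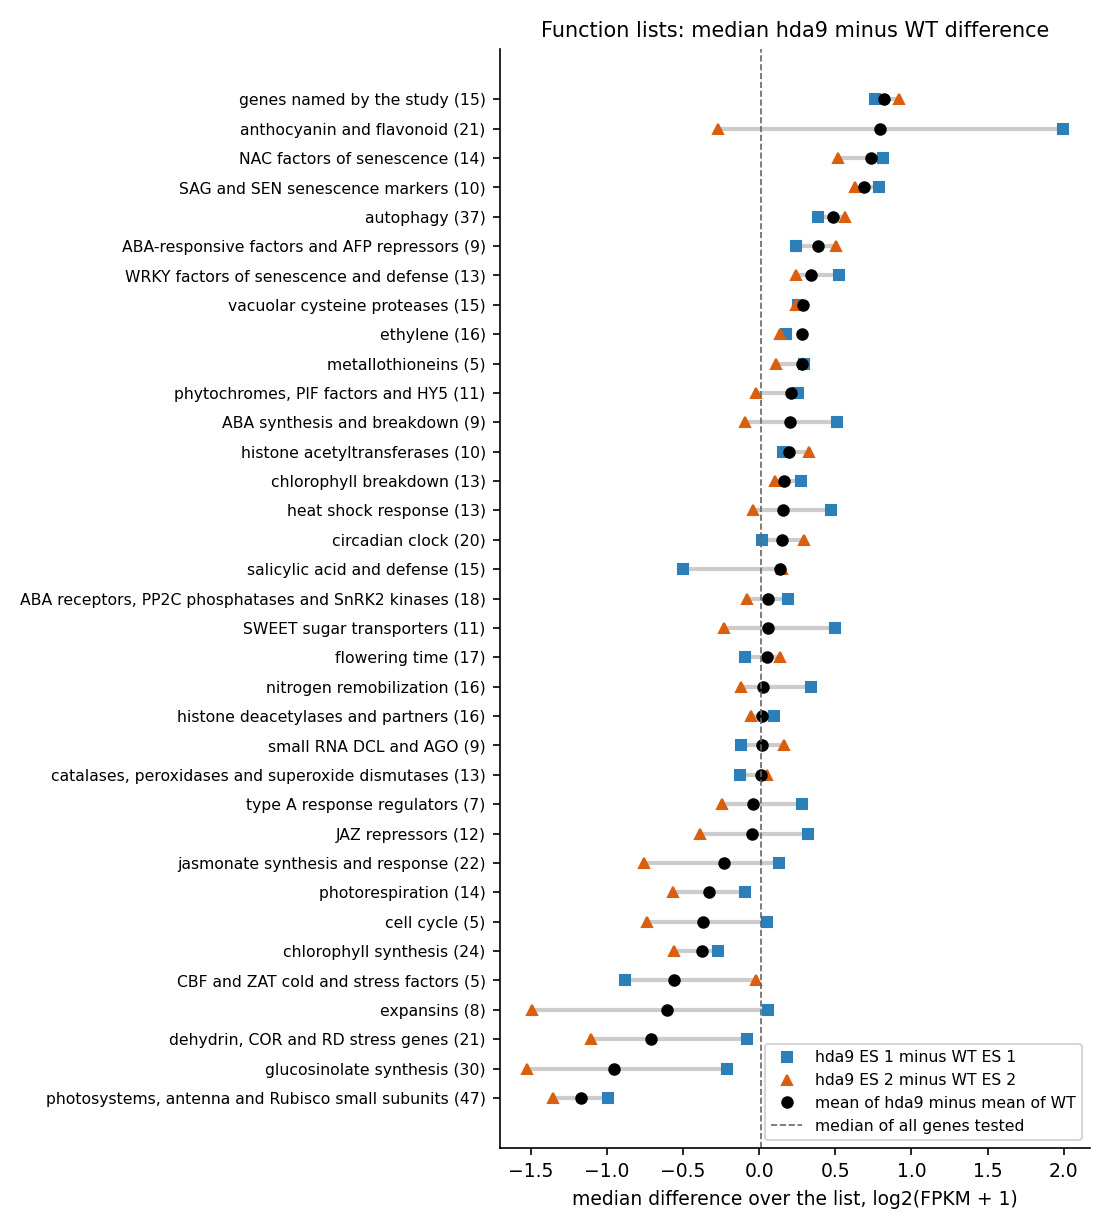
Median difference between *hda9* and WT on log2(FPKM + 1) for 35 lists of genes, with the number of tested genes in brackets, a square for the first library pair, a triangle for the second and a circle for the pooled difference. Photosynthesis genes, at -1.17, are lowest with both pairs close together, whereas anthocyanin genes span from -0.27 to 1.99.

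Flowering and clock genes held some of the larger single changes. *FT* (AT1G65480), the mobile flowering signal made in leaf veins, was at 3.40 and 13.8 in WT and 46.1 and 79.5 in *hda9* and rose by 2.93 (SE 0.7503, limma unadjusted p = 0.00869). *AGL19*, a MADS factor that promotes flowering, was at 1.697 and 2.05 against 9.16 and 13.8 and rose by 2.09 (SE 0.349, limma unadjusted p = 0.00114, adjusted p = 0.825). *SOC1*, downstream of *FT*, was at 86.4 and 97.1 against 129 and 180 (limma unadjusted p = 0.0513). *SPL3*, a target of miR156, was at 2.71 and 3.96 against 1.02 and 1.23 and fell by 1.02 (SE 0.328), and it shares its locus with a non-coding RNA on the other strand. *TSF*, the homologue of *FT*, was at 3.19 and 6.16 against 0.513 and 2.01 and was not called. Among 20 clock genes *PRR5* rose (12.3 and 11.4 against 18.7 and 24.3) and *CHE*, a TCP repressor of *CCA1*, fell (15.4 and 17.9 against 8.08 and 6.63, by 1.08 with an SE of 0.257).

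Among protein-coding genes that averaged 5 FPKM or more, the 10 largest rises that held in both pairs without overlap began with *AT2G43120*, a cupin family gene, which was at 3.13 and 5.26 in WT and at 230 and 16.1 in *hda9*. Its mutant values differed widely, and the rise of 3.63 had an SE of 1.36. *WES1*, an enzyme that conjugates auxin to amino acids, was at 1.89 and 9.34 against 38.4 and 87.1 and rose by 3.43 (SE 0.775, limma unadjusted p = 0.00496). *DIN2*, a dark-induced beta-glucosidase, was at 0.765 and 11.1 against 27.5 and 82.6 and rose by 3.40 (SE 1.13). *DXPS1*, named for the entry enzyme of plastid isoprenoid synthesis, was at 0.678 and 5.23 against 36.6 and 22.4 (limma unadjusted p = 0.00298). *DOX1*, an alpha-dioxygenase of oxidative stress, was at 0.408 and 8.77 against 46.1 and 24.9. *PEPC1*, a phosphatase of phosphocholine and phosphoethanolamine, was at 1.97 and 37.5 against 143 and 66.5. The oxygenase gene *AT2G38240* was at 4.08 and 43.1 against 132 and 188, and the kinase gene *AT5G45430* at 16.4 and 0.699 against 63.2 and 34.5. In 7 of these 8 genes the first pair differed more than the second. The uncharacterized *AT1G33640* and *AT1G51000* were listed at 0 in both WT libraries and at 7.74 and 14.2, and 2.16 and 18.8, in *hda9*, and the former overlaps a non-coding RNA. Both passed the filter only through their *hda9* values, since the filter averages both genotypes.

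The 10 largest falls by the same rule held 2 antenna genes, *LHCB1.4* and *LHCB2.4*. *AT5G05960*, a gene of the protease inhibitor and lipid-transfer family, was at 167 and 78.2 in WT and at 7.01 and 4.36 in *hda9*. It fell by 4.14 (SE 0.444, limma unadjusted p = 0.000113, adjusted p = 0.17), by 4.39 and 3.89 in the pairs, and it overlaps annotated genes on both strands. *AT1G14250*, of a nucleoside phosphatase family, was at 59.5 and 23.2 against 6.64 and 1.75 and fell by 3.06 (SE 0.677). *AT3G01940* was at 16.6 and 12.3 against 3.54 and 0. *AT3G06895* was at 5326 and 1806 against 1188 and 157, but overlaps a small nuclear RNA gene. The uncharacterized *AT1G07885*, *AT2G28426*, *AT1G76994* and *AT2G47844* were listed at 0 in both *hda9* libraries and at 44.9 and 38.2, 48.7 and 14.3, 9.60 and 19.3, and 12.3 and 9.35 in WT. They passed the filter only through their WT values.

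All 5 genes with an adjusted p under 0.05 were listed at 0 in one genotype, so each passed the filter only through the other. *AT1G07885* (adjusted p = 0.0151), the small nucleolar RNA gene *SNOR105* (36.5 and 69.1 in WT, adjusted p = 0.0259) and the cysteine tRNA genes *AT2G07763* (687 and 293) and *AT3G52345* (738 and 267, both adjusted p = 0.0161) were at 0 in both *hda9* libraries. *AT1G07885*, *SNOR105* and *AT3G52345* were also at 0 in both *pwr* libraries, and *AT2G07763* was at 284 and 527 there. *MIR168a* (AT4G19395, chromosome 4, 10578635 to 10578772), the precursor of a microRNA that targets the *AGO1* transcript, was at 0 in both WT libraries and at 38.4 and 37.5 in *hda9* (adjusted p = 0.0151) and 76.1 and 106 in *pwr*. It was at 114 in WT YL 1 and at 0 in WT YL 2, so libraries of 1 genotype could also part between a high value and 0. An exact 0 of a short feature in an FPKM table can be a failed estimate, and no fold is given. *AGO1* was at 28.5 and 42.1 in WT and 31.2 and 47.6 in *hda9* and was not called. The mature form is shown as the genome has it, with the seed (bases 2 to 8) in capitals, from chr4:10578652-10578672 on the plus strand.
miR168a-5p: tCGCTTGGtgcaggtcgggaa

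Calls among short RNAs as a whole varied by class. The study describes mRNA sequencing, and how far such libraries capture these RNAs was not tested. The caution on an exact 0 of a short feature holds here too. Of 6 tested small nuclear RNA genes 5 were called lower, and of 50 small nucleolar RNA genes 7 were called lower and 1 higher, against 2.7% lower and 2.24% higher of all genes. The median of the small nucleolar RNA genes was -0.66. Without *hda9* ES 2 limma called 5 small nucleolar RNA genes in each direction (median -0.20), and 2 small nuclear RNA genes lower without either WT ES 1 or *hda9* ES 2. Of 47 tested microRNA genes 3 were called higher and 4 lower, and of 16 tRNA genes 2 were called lower, with medians of -0.22 and -0.03. In either direction 83.3% of the small nuclear and 16% of the small nucleolar RNA genes were called, against 4.94% of all genes. For microRNA and tRNA genes the shares were 14.9% and 12.5%. Genes shorter than 300 bases made up 33 of the 890 calls and 230 of the 18029 genes tested, a larger part of the calls than of the genes.

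Markers of leaf cell types were checked beside these results. *LHCB1.3*, *RBCS1A* and *RCA*, taken for mesophyll, had a median of -0.70 and 1 fell, and *LHCB1.3* belongs to the photosynthesis list as well. Of 4 guard cell markers *KAT1*, a potassium channel, rose (7.99 and 14.1 against 32.0 and 19.5), while *GC1*, *MYB60* and *FAMA* were not called. *SUC2*, the sucrose transporter of phloem companion cells, was at 291 and 167 against 370 and 178. *PYK10*, a root beta-glucosidase, was at 2.498 and 12.8 against 15.8 and 4.28. The 2 trichome, 3 flower and 2 seed markers lay below the filter in these leaves. The part of cell composition in the differences was not tested.

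Values of *pwr* and of young leaves stand beside those of *hda9* as follows, and the *pwr* comparison shares its WT libraries with that of *hda9*. Both *pwr* ES libraries had low values on steps, so *pwr* minus WT also compares library sets, unlike *hda9* minus WT. Medians of WT ES 2 minus WT ES 1 were -1.10 for photosynthesis, 0.37 for glucosinolate, 2.38 for dehydrin and 0.25 for autophagy genes. They were 1.28 for the NAC and 1.76 for the *SAG* and *SEN* list. The part of the set in the *pwr* medians was not tested. The photosynthesis list of 47 genes had a median of -0.55 in *pwr* against WT and -1.17 in *hda9*, its *LHCB* genes -1.27 and -1.78 and its Rubisco small subunits 0.40 and -0.74. The glucosinolate list had -1.07 and -0.96, and the dehydrin list -0.96 and -0.71. The autophagy list had 0.04 in *pwr* and 0.48 in *hda9*, the NAC list 0.18 and 0.74, and the *SAG* and *SEN* list -0.16 and 0.69. The differences between the mutants were not tested. *SAG14* was at 176 and 160 in *pwr*, inside the range of WT, *FT* at 43.4 and 122, *COR15A* at 339 and 304 and *LHCB1.4* at 121 and 54.5. In young leaves, normalised apart and with 1 *hda9* library, the *LHCB* genes of *hda9* were above WT YL 1 and WT YL 2 by medians of 0.35 and 1.84, and the autophagy genes differed by 0.12 and -0.08.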

How the data were processed

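RNA of leaves was sequenced from TruSeq libraries, which do not keep strand. The authors aligned reads to TAIR10, collapsed reads at identical positions and used Tophat and Cufflinks, and they deposited FPKM per gene and library, in 1 table for ES and 1 for YL. Which program wrote the tables and any further scaling are not given in the sources used here, and depth per library is not in the tables. Of 33278 identifiers 32820 matched the RefSeq annotation of TAIR10.1, from which symbols, coordinates and upstream sequences were read.

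Values were transformed as log2(FPKM + 1). One unblocked linear model over the 6 ES libraries (3 genotypes) used limma (version 3.58.1, under R 4.3.3), with variances moderated by eBayes along a mean trend. The call was an unadjusted p below 0.05, Benjamini-Hochberg adjusted p-values stand beside it, and p-values measure the spread between 2 libraries per group. Libraries were put in the set with steps where over 10% of genes under 1 FPKM shared 1 ratio with another library (19.7% for WT ES 2 and *hda9* ES 2). The remaining libraries formed the other set by default, and WT ES 1 and *hda9* ES 1 shared 1 ratio in 1.85%. Named genes were *HDA9*, those the study names, all with an adjusted p under 0.05, the 10 largest rises and falls of protein-coding genes averaging 5 FPKM or more, and up to 3 called genes per list or else its highest gene. Further list members were named after their values were seen. Members and lists were chosen with earlier results of these data known. The script was tested on simulated data. Python 3.11.15 ran the remaining steps (numpy 2.4.6, pandas 2.3.3, matplotlib 3.10.9). Alternatives were another pseudocount, other filters, rescaling, blocks, a fit of 4 libraries, adjusted p, other fold limits and each library left out. One named gene is not reported here.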

Additional observations from a re-analysis of the deposited data

Results flagged for a closer look

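For 8 of the 89 genes named by rule, both *hda9* ES libraries lay on 1 side of both WT ES libraries and the single *hda9* YL library on the opposite side of both WT YL libraries. No share over all tested genes stands beside this count. Of the 89 genes 63 were called in the ES leaves, and the rule for the largest rises and falls required ES groups without overlap. The ES side of the pattern was therefore set in part by the choice of genes, and the count is no evidence of a change between stages. A single library can also lie outside 2 others when the genotypes do not differ. The 2 tables were normalised separately, the difference between stages was not tested, and YL rests on 1 *hda9* library. In the ES leaves 6 of them were higher in *hda9*, and their YL differences from the mean of WT YL on log2(FPKM + 1) were -0.77 for *APG9*, -0.27 for *ATG2*, -0.87 for *AT2G43120*, -0.84 for *DIN2*, -0.27 for *PEPC1* and -0.55 for *AT5G45430*. The antenna genes *LHCB1.4* and *LHCB2.4* were lower in *hda9* ES leaves and higher in *hda9* YL, by 2.01 and 1.08. In FPKM *LHCB1.4* was at 5035 and 1665 in WT YL and 11663 in *hda9* YL.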

How the results depend on the processing

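Counts of called genes moved with the design. Against 403 higher and 487 lower genes, limma called 1739 and 1345 with the library set as a block and 1 and 4 at an adjusted p under 0.05, and no filter on FPKM gave 748 lower. Leaving out 1 of the 4 libraries gave 139 to 812 higher genes (139 without WT ES 1, 262 without *hda9* ES 2, 692 without *hda9* ES 1, 812 without WT ES 2) and 225 to 1024 lower (225 without *hda9* ES 2, 1024 without *hda9* ES 1), and the lone library of a group was then assumed to vary like the others. A limit of 1.5-fold in both pairs gave 984 genes higher and 903 lower, and 2-fold in each *hda9* library against each WT library gave 83 and 91. Over 873 refits of the 63 called named genes 741 kept the call, 132 lost it and 0 reversed. These genes were chosen as called in the same libraries, and the refits reuse those libraries. Blocks and the fit of 4 libraries leave the difference itself unchanged. The absence of reversals is therefore no evidence that the directions are stable. Rescaling, a pseudocount of 0.1, a filter at 5 FPKM and a fit of 4 libraries kept both totals over all genes within 1.5 times, though counts within lists moved by more.

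The replicate numbers are shared by the genotypes, but no label says that they pair samples. Deviations from the group mean correlated at 0.549 for same-numbered WT and *hda9* libraries, at 0.105 for those of *pwr* and WT, and at -0.0125 for those of *pwr* and *hda9*. Blocking on the replicate number, limma called 818 genes up and 751 down over 6 libraries, and 2004 and 1577 over 4.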
